A study of Mus musculus with 2 samples.

Results

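The genes described here are the nuclear effectors of the Hippo pathway and genes that are widely used as readouts of their activity, measured in spatial transcriptomes of mouse intestine. They were chosen by symbol from a list of 10, namely Yap1, Wwtr1, Tead1, Ccn1, Ccn2, Ankrd1, Amotl2, Ajuba, Axl and Lats2, and all 10 were found among the 54658 gene symbols of the count tables, where Ccn1 and Ccn2 stand under their older symbols Cyr61 and Ctgf. The first 3 are called effectors below and the other 7 targets. The series holds 1 section of intestine labelled Dpf2 knockout and 1 labelled wild type, called the KO-labelled and the WT-labelled section below. Both came from mice given 10 Gy of X-rays, and no unirradiated section was analysed here. Dpf2 encodes a subunit of the BAF chromatin remodelling complex, and the study asked how its loss bears on the irradiated gut. The sources used here do not give the deleted part of the gene, the tissue of deletion, the stretch of gut, the number and age of the mice or the time after irradiation.

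The Hippo pathway is a kinase cascade that restrains growth. Its kinases phosphorylate YAP (from Yap1) and TAZ (from Wwtr1), which are then held in the cytoplasm or degraded. When the kinases are inactive, YAP and TAZ enter the nucleus, bind DNA through TEAD proteins such as TEAD1, and raise transcription of targets that include CCN1 and CCN2. In the gut, YAP is known for its part in the regrowth of the epithelium after injury, and smooth muscle, fibroblasts and endothelium also use the pathway.

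TEAD proteins recognise the core GGAATG, which reads CATTCC on the other strand, so the stretches of the promoters that hold this core show where the letters lie next to the genes whose levels follow. Promoter windows ran from 250 bases before to 50 after the annotated start and came from RefSeq on GRCm38.p6. They were found for 8 of the 10 genes, which did not include Tead1 and Ccn2, and each of the 8 held at least 1 match in 1 of its windows. Of the 10 windows of these 8 genes, 9 held a match on either strand, where 14.7% of all 32851 windows of the same length did. Of all 27025 genes in the table, 16.6% had a window with a match. No match overlapped another. Each stretch is written 5′ to 3′ on the strand of its gene, with the core in capitals.
Yap1, chr9:8004720-8004749, minus strand: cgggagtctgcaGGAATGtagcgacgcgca
Wwtr1, chr3:57576029-57576058, minus strand: ggtaaactcaaaGGAATGcagataggcgct
Ccn1, chr3:145650071-145650100, minus strand: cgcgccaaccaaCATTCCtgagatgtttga
Ankrd1, chr19:36120037-36120066, minus strand: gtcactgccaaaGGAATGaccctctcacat
Ankrd1, chr19:36119950-36119979, minus strand: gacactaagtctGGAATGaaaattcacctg
Amotl2, chr9:102717727-102717756, plus strand: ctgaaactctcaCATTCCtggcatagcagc
Ajuba, chr14:54577830-54577859, minus strand: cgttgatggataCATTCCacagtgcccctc
Ajuba, chr14:54577808-54577837, minus strand: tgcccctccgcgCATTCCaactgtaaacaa
Axl, chr7:25788949-25788978, minus strand: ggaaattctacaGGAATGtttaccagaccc
Lats2, chr14:57746102-57746131, minus strand: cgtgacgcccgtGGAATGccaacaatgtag
Distances are from the start that each RefSeq window was cut around, which in Yap1, Amotl2, Axl and Lats2 lies inside the outer bounds given for the gene below, and a gene with several windows is given by 1 of them. The first base of the core lay 103 bases upstream of the start in Ccn1, 141 in Yap1, 136 in Wwtr1, 65 in Amotl2 and 233 in Axl. It lay 210 and 123 bases upstream in Ankrd1 and 186 and 164 in Ajuba, while that of Lats2 was base 5 after the start. These matches describe letters only, and binding was not measured.

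The upstream part of the Ccn1 promoter is shown whole because Ccn1 differed most between the sections among the 10 genes. It spans the 250 bases before the start, chr3:145649986-145650235 on the minus strand of GRCm38.p6, and its 1 match is in capitals.
Ccn1 upstream stretch: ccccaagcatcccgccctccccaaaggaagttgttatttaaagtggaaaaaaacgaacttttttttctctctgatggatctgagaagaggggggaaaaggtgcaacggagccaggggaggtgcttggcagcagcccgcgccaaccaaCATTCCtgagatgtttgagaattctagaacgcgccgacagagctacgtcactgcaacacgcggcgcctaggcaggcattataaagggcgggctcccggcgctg

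Levels are in CPM, a gene's count divided by all counts of the section or squares named and multiplied by 1000000. The KO-labelled section held 89754886 counts over 88056 barcodes and the WT-labelled section 39824941 over 50970, so 3 counts, the limit that a count of 0 allows, equal 0.0334 and 0.0753 CPM. With 1 section per genotype there is no test, genotype and section cannot be told apart, and the 95% intervals below cover counting error only. Dpf2 itself stood at 26.0 CPM in the KO-labelled section and 23.6 CPM in the WT-labelled section (log2 ratio 0.14, interval 0.03 to 0.25), which goes against the label, although reads outside a deleted part would check nothing. The sections also differed in their cell type markers. The 16 enterocyte markers summed to 37593 CPM in the KO-labelled section and 526 CPM in the WT-labelled section, and the 9 Paneth cell markers to 5810 and 94367 CPM. Markers of regenerating epithelium summed to 358 and 3579 CPM in the same order, those of smooth muscle to 2194 and 890, of fibroblasts to 525 and 953, of endothelium to 381 and 597, of neutrophils to 4.501 and 533, and of adipocytes to 1607 and 160. The pan-epithelial markers, led by Lgals4, were at 9607 and 7350 CPM, so both sections held the epithelium that the tissue label names. In every comparison of whole sections below, fewer cells of a type and less RNA per cell cannot be told apart.

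The targets Ccn1, Ccn2, Ajuba and Axl were set further apart between the sections than any effector, and each was lower in the KO-labelled section. The targets Lats2 and Amotl2 were set less far apart than the effectors Tead1 and Wwtr1. Genes were counted if they had 200 or more counts over both sections, which Ankrd1 did not, leaving 9 of the 10. Of these 9, 5 were at least 2-fold lower in the KO-labelled section (Tead1, Ccn1, Ccn2, Ajuba and Axl), where 19.7% of all 14516 genes counted were. None of the 9 was at least 2-fold higher, a side on which 15.7% of all genes lay. The median log2 ratio was −1.49 over the 9 genes and −0.18 over all genes counted.

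Each section was split by position into 4 parts of about equal barcode number to show the spread within it. In 8 of the 9 genes, all but Amotl2, the 4 parts of the KO-labelled section lay below the 4 parts of the WT-labelled section. Such a separation held for 42.8% of all genes counted, so by itself it says little about these genes. None had its 4 parts all higher in the KO-labelled section, as 31.5% of all genes did. The plot of levels by part shows the 4 values beside the level of the whole section.

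**Figure D1:**
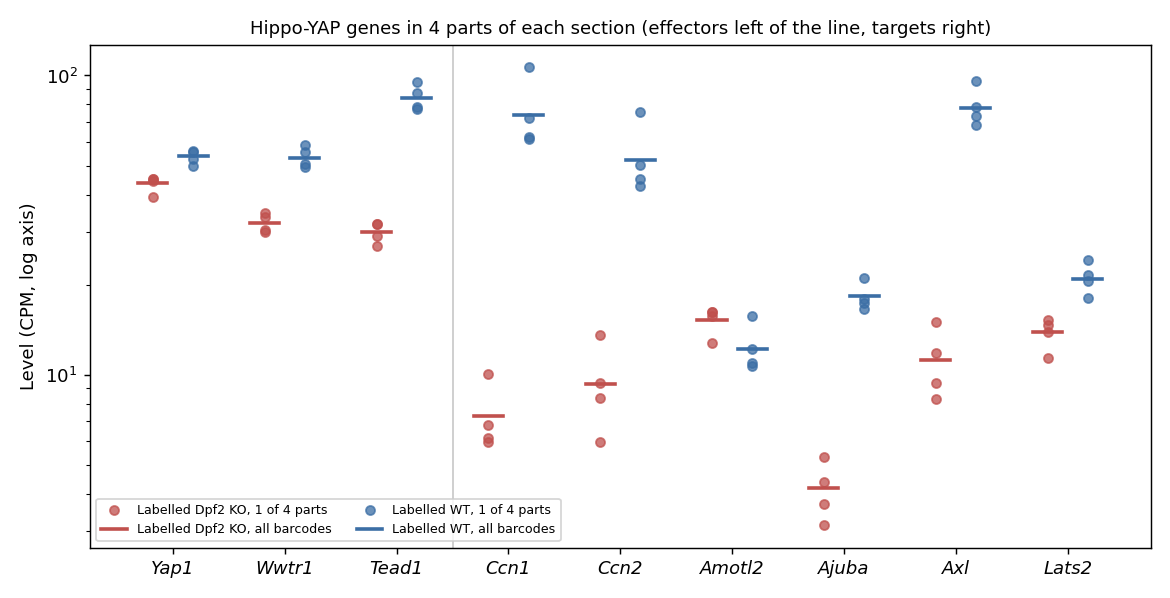
Level of 9 genes in CPM (log axis) in the KO-labelled section (left of each pair) and the WT-labelled section (right), with a point for each of 4 parts by position and a bar for all barcodes. For Ccn1 the highest part of the KO-labelled section is at 10.0 CPM and the lowest part of the WT-labelled section at 61.1 CPM, whereas the parts of Amotl2 overlap.

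Among the effectors, Yap1 (chromosome 9, 7931999 to 8004638), the main coactivator of the pathway, was close between the sections. It had 3911 counts, or 43.6 CPM (interval 42.2 to 45.0), in the KO-labelled section and 2138 counts, or 53.7 CPM (51.4 to 56.0), in the WT-labelled section, a log2 ratio of −0.30 (−0.38 to −0.22). Its parts stood at 39.2, 44.3, 45.2 and 45.2 CPM in the KO-labelled section and at 49.7, 52.6, 55.5 and 55.9 CPM in the WT-labelled section. The parts did not overlap, but the gap between the highest and lowest of the facing parts was smaller than the range within either section.

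Wwtr1 (chromosome 3, 57455644 to 57575910), which encodes TAZ, the paralogue of YAP, stood at 32.0 CPM in the KO-labelled section and 53.2 CPM in the WT-labelled section, with a log2 ratio of −0.73 (−0.81 to −0.65). Its parts ran from 30.0 to 34.6 CPM in the KO-labelled section and from 49.5 to 58.4 CPM in the WT-labelled section. Tead1 (chromosome 7, 112679356 to 112906784), the DNA-binding partner, was the effector set furthest apart. It was at 29.9 CPM on 2688 counts in the KO-labelled section and at 83.9 CPM on 3340 counts in the WT-labelled section, a log2 ratio of −1.49 (−1.56 to −1.41). Its parts were 26.9, 29.0, 31.9 and 32.0 CPM in the KO-labelled section and 77.5, 78.3, 87.7 and 94.9 CPM in the WT-labelled section, far from overlapping.

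Ccn1 (chromosome 3, 145646971 to 145649985), a secreted matricellular protein and an immediate target of YAP, showed the lowest ratio of the 10. It had 651 counts, or 7.25 CPM (6.71 to 7.83), in the KO-labelled section and 2930 counts, or 73.6 CPM (70.9 to 76.3), in the WT-labelled section. Its log2 ratio was −3.34 (−3.47 to −3.22), 10.1-fold lower in the KO-labelled section. The parts stood at 5.96, 6.14, 6.80 and 10.0 CPM in the KO-labelled section and at 61.1, 62.5, 71.9 and 106 CPM in the WT-labelled section, so 1 part stood above the other 3 in each section.

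Ccn2 (chromosome 10, 24595442 to 24598683), its relative and a growth factor of connective tissue, followed the same direction. It stood at 9.34 CPM in the KO-labelled section and 52.0 CPM in the WT-labelled section, a log2 ratio of −2.48 (−2.60 to −2.36). Its parts were 5.96, 8.38, 9.40 and 13.5 CPM in the KO-labelled section, against 42.7, 45.0, 50.2 and 75.6 CPM in the WT-labelled section. The highest part of the KO-labelled section still lay well under the lowest part of the WT-labelled section.

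Axl (chromosome 7, 25756500 to 25788924), a receptor tyrosine kinase for Gas6, was at 11.2 CPM on 1007 counts in the KO-labelled section and at 77.9 CPM on 3101 counts in the WT-labelled section, a log2 ratio of −2.79 (−2.90 to −2.69). Its parts stood at 8.32, 9.35, 11.8 and 14.98 CPM in the KO-labelled section and at 68.5, 72.95, 78.6 and 95.9 CPM in the WT-labelled section. Ankrd1 (chromosome 19, 36111965 to 36119844), a nuclear ankyrin repeat protein best known from the heart and a common YAP readout, had few counts in both sections. There were 8 counts in the KO-labelled section and 21 in the WT-labelled section, a log2 ratio of −2.56 with an interval of −3.95 to −1.33, and the gene is left out of the counts of genes.

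The last 3 targets act back on the pathway. Ajuba (chromosome 14, 54567469 to 54577661), a LIM protein that binds and restrains LATS kinases, stood at 4.17 CPM on 374 counts in the KO-labelled section and at 18.3 CPM on 727 counts in the WT-labelled section, a log2 ratio of −2.13 (−2.32 to −1.95). Lats2 (chromosome 14, 57689662 to 57746212), a kinase that phosphorylates YAP, differed less, with 13.9 CPM in the KO-labelled section and 20.8 CPM in the WT-labelled section and a log2 ratio of −0.58 (−0.71 to −0.45). Amotl2 (chromosome 9, 102717091 to 102733418), a junctional protein that binds YAP, went the other way, with 15.3 CPM in the KO-labelled section and 12.2 CPM in the WT-labelled section (log2 ratio 0.33, interval 0.18 to 0.48).

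The parts of these 3 genes differed in how cleanly they separated. Ajuba ran from 3.15 to 5.29 CPM in the KO-labelled section and from 16.6 to 21.1 CPM in the WT-labelled section, and Lats2 from 11.4 to 15.2 and from 18.02 to 24.1 CPM in the same order. Amotl2 stood at 12.8, 15.7, 16.2 and 16.2 CPM in the KO-labelled section and at 10.7, 10.96, 12.2 and 15.7 CPM in the WT-labelled section. Its ranges overlapped, since the highest part of the WT-labelled section lay above 2 parts of the KO-labelled section.

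Smaller tiles with a side of 100 position units, 92 in the KO-labelled section and 65 in the WT-labelled section, separated the genes to different degrees. For Axl, 64 of the 65 tiles of the WT-labelled section lay above the highest tile of the KO-labelled section, and this number was 63 for Tead1, 60 for Ccn1, 51 for Ccn2 and 37 for Ajuba. It was 25 for Wwtr1, 13 for Lats2, 4 for Yap1 and 1 for Amotl2. Ccn1 ran over the tiles from 0 to 31.0 CPM with a median of 6.49 in the KO-labelled section, and from 7.82 to 224 CPM with a median of 72.8 in the WT-labelled section. Levels of Yap1 overlapped widely, from 22.2 to 77.9 CPM in the KO-labelled section and from 19.6 to 93.5 CPM in the WT-labelled section.

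Genes upstream of the effectors lay close to the median of all genes. Of 20 upstream genes, which include the kinases, their adaptors and the membrane proteins that control them, 3 were at least 2-fold lower in the KO-labelled section and none at least 2-fold higher, where 19.7% and 15.7% of all genes were, and their median log2 ratio was −0.23. The 3 were Dchs1, a protocadherin (2.12 CPM in the KO-labelled section and 4.92 CPM in the WT-labelled section, log2 ratio −1.22), Wwc2, a KIBRA family scaffold (−1.11), and Amotl1, an angiomotin that binds YAP (−1.02). The 3 most abundant stood close to 0, with Mob1b, a cofactor of LATS, at 0.40, Taok3, a kinase upstream of the MST kinases, at 0.05 and Mob1a at −0.14. Of the core kinases, named for their role after their values were seen, Lats1 stood at −0.11 and the MST kinases Stk3 and Stk4 at −0.77 and −0.52.

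The other TEAD and VGLL genes lay lower in the KO-labelled section. Of 5, 4 were counted, and 2 of them were at least 2-fold lower, where 19.7% of all genes were. Tead4 had 105 counts, or 1.17 CPM, in the KO-labelled section and 1206 counts, or 30.3 CPM, in the WT-labelled section, a log2 ratio of −4.69 (−4.996 to −4.41). Vgll4, whose product competes with YAP for TEAD, stood at 5.10 CPM in the KO-labelled section and 19.4 CPM in the WT-labelled section (−1.93, −2.10 to −1.76). Tead3 was at −0.39.

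Further genes known as YAP targets from published lists split in both directions. Of 15 counted, 3 were at least 2-fold lower in the KO-labelled section, where 19.7% of all genes were, and 4 at least 2-fold higher, where 15.7% of all genes were, with a median log2 ratio of −0.33. Igfbp3, a binding protein of insulin-like growth factors, stood at 19.9 CPM in the KO-labelled section and 354 CPM in the WT-labelled section (−4.15). F3, the tissue factor of clotting, stood at −2.87 and Myof, a membrane repair protein, at −1.77. The 4 higher ones were the kinase Nuak2 at 2.26 (50.9 CPM in the KO-labelled section and 10.6 CPM in the WT-labelled section), Nt5e, the ectoenzyme CD73, at 2.25, Gadd45a, a stress response gene, at 1.91 and Ccdc80 at 1.36.

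The place of the 10 genes in the tissue was read from squares with a side of 25 position units, 1353 in the KO-labelled section and 851 in the WT-labelled section. For each marker list, the 10% of squares of a section with the highest summed level are called rich in those markers. Because the threshold was set within each section, such squares hold different marker levels in the 2 sections, as the median enterocyte-rich square did with 4528 enterocyte counts in the KO-labelled section and 60 in the WT-labelled section. A square holds many barcodes and can hold several cell types, and lists overlap. Of the pericyte-rich squares, 83.1% in the KO-labelled section and 70.9% in the WT-labelled section were also smooth-muscle-rich.

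In the KO-labelled section, most of the genes stood high in fibroblast-rich squares and low in enterocyte-rich squares. Of the 9 genes, 7 were at least 1.5-fold higher in fibroblast-rich squares than in the rest of the section, where 22.5% of all genes were. In pericyte-rich squares and in those rich in markers of enteric neurons and glia it was 6 of 9, with 19.5% and 17.3% of all genes. Smooth-muscle-rich, endothelium-rich and macrophage-rich squares had 5 of 9 each, with 20.8%, 14.2% and 17% of all genes. Squares rich in markers of Paneth cells or regenerating epithelium had 4 of 9 each, with 16% and 6.74%, and adipocyte-rich squares 3 of 9, with 13.6%. None of the 9 passed in the enterocyte-rich (5.47% of all genes), pan-epithelial-rich (3.72%), goblet-rich (3.59%), proliferation-rich (18.3%), plasma-cell-rich (0.769%) or T-cell-rich (1.75%) squares. Of the 9, 7 had their lowest level in enterocyte-rich squares, and the other 2, Amotl2 and Lats2, in squares rich in proliferation markers. How many of all genes had their lowest level in each kind was not counted. The median of all genes was also lowest in enterocyte-rich squares, at a log2 ratio of −0.41 over the rest of the section. That of the 9 genes was −1.05 there. For each of the 9 genes in each section, the counting intervals of the highest and second-highest kinds of square overlapped. Those of the lowest and second-lowest kinds overlapped too. These intervals alone thus do not set a kind named highest or lowest here and below apart from the next. No interval was taken for the ratio of 2 kinds. The colour plot of ratios in rich squares shows both sections.

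**Figure D2:**
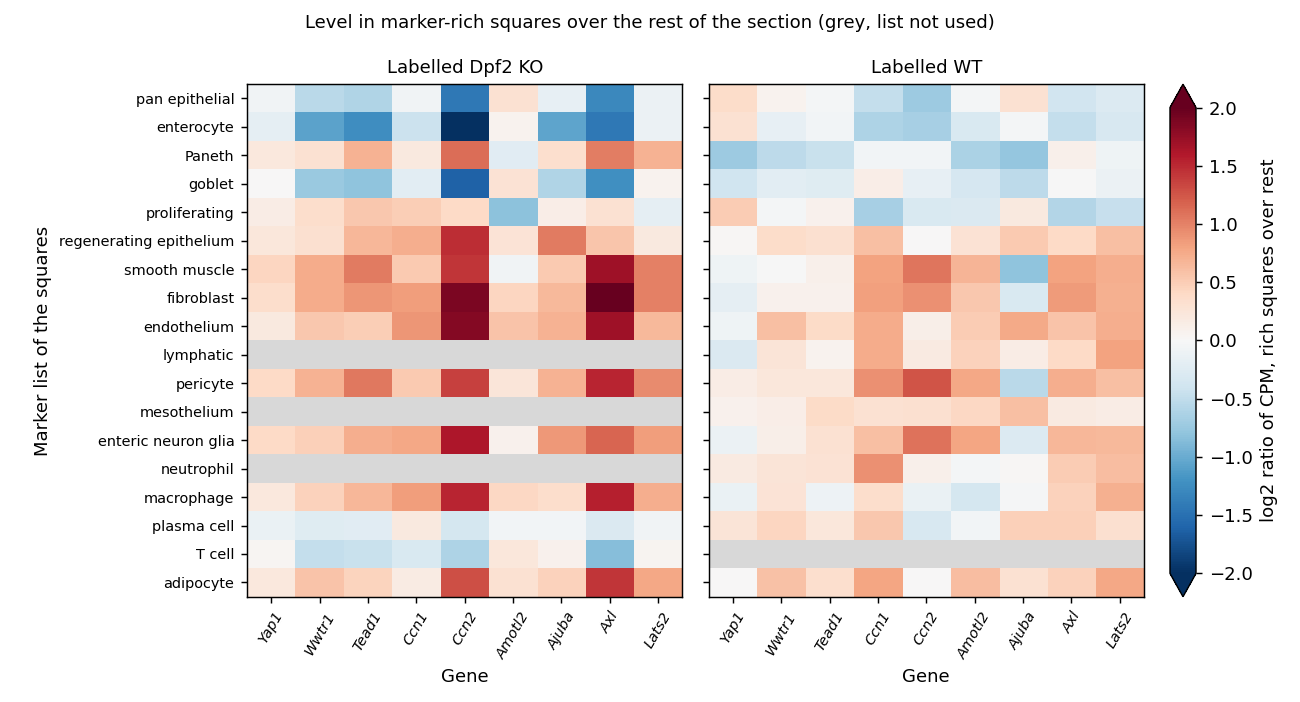
Log2 ratio of the level in squares rich in the markers named on the vertical axis over the level in the rest of the same section, for 9 genes, in the KO-labelled section (left) and the WT-labelled section (right); red is higher in the rich squares and grey marks lists with too few counts. Ccn2 and Axl show the strongest contrast in the KO-labelled section, with 1.88 and 2.17 in fibroblast-rich squares and −2.55 and −1.43 in enterocyte-rich squares.

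Ccn2 and Axl showed this contrast most clearly. Ccn2 reached 27.1 CPM (23.6 to 30.9) in endothelium-rich squares and 26.8 CPM (23.5 to 30.3) in fibroblast-rich squares of the KO-labelled section, 2 values that counting error does not separate, and 1.75 CPM (1.04 to 2.77, 18 counts) in enterocyte-rich squares. Axl reached 37.0 CPM (33.2 to 41.1) in fibroblast-rich squares of that section, against 8.21 CPM in its other squares, and 4.48 CPM (3.28 to 5.97) in enterocyte-rich squares. Both genes thus ranged more than 8-fold between kinds of square within 1 section.

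The effectors showed a shallower form of the same order in the KO-labelled section. Tead1 was at 56.1 CPM (51.2 to 61.3) in pericyte-rich squares and 55.9 CPM in smooth-muscle-rich squares, and at 13.6 CPM (11.5 to 16.1) in enterocyte-rich squares. Wwtr1 stood at 49.9 CPM in fibroblast-rich squares and 16.3 CPM in enterocyte-rich squares. Yap1 was the most even, from 56.6 CPM (51.7 to 61.7) in smooth-muscle-rich squares to 39.1 CPM in enterocyte-rich squares, and no kind of square held it 1.5-fold above the rest.

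The feedback genes differed among themselves in the KO-labelled section. Lats2 was at 25.2 CPM in both fibroblast-rich and smooth-muscle-rich squares and at 24.5 CPM in pericyte-rich squares, and lowest in proliferation-rich squares, at 12.5 CPM. Ajuba was at 7.86 CPM (6.001 to 10.1) in squares rich in markers of regenerating epithelium against 3.84 CPM in the rest of the section, with squares rich in markers of enteric neurons and glia at 7.05 CPM and pericyte-rich squares at 6.41 CPM within its counting error. Amotl2 was highest in endothelium-rich squares, at 21.7 CPM (18.6 to 25.2), with fibroblast-rich squares at 19.8 CPM. Amotl2 was lowest in squares rich in proliferation markers, at 9.004 CPM (7.15 to 11.2). Ccn1, for all its low level, was highest in endothelium-rich squares, at 12.4 CPM (10.1 to 15.1) on 99 counts, with macrophage-rich and fibroblast-rich squares at 12.1 and 11.97 CPM within its counting error.

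In the WT-labelled section, most targets parted from the effectors, but Ajuba did not. Smooth-muscle-rich squares, pericyte-rich squares and those rich in markers of enteric neurons and glia held 5 of 9 genes each at least 1.5-fold above the rest, with 7.75%, 8.78% and 7.48% of all genes. Fibroblast-rich squares held 4 of 9, with 8.17% of all genes. None of these genes was an effector. Endothelium-rich and adipocyte-rich squares held 4 of 9 each, with 10.5% and 9.19% of all genes, and here Wwtr1 was among them. Of the adipocyte-rich squares of this section, 57.0% were also endothelium-rich. Fabp4 alone gave 134 of the 160 CPM of adipocyte markers, and 2 of the 8 markers had no counts. The name of these squares thus rests mostly on 1 gene in the WT-labelled section, here and below. Squares rich in markers of regenerating epithelium, lymphatic vessels or neutrophils held 2 each, with 8.28%, 11.2% and 6.19%, and mesothelium-rich and macrophage-rich squares 1 each, with 5.62% and 11.7%. None of the 9 passed in the pan-epithelial-rich (7.9% of all genes), enterocyte-rich (3.21%), Paneth-rich (0.971%), goblet-rich (0.791%), proliferation-rich (4.97%) or plasma-cell-rich (6.97%) squares. Over 17 marker lists, 35 of 153 pairs of gene and list were at least 1.5-fold higher in this section, but 15 of 162 with squares of side 50, for which no share of all genes was taken. Ccn2 reached 112 CPM (100.3 to 125) in pericyte-rich squares against 46.8 CPM in the rest of the section, and Axl 130 CPM (118 to 142) in fibroblast-rich squares against 72.2 CPM in the rest.

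Yap1 ran the opposite way in the WT-labelled section. It was highest in squares rich in proliferation markers, at 73.04 CPM (64.9 to 81.9), followed by those rich in pan-epithelial markers at 67.0 CPM, and lowest in Paneth-rich squares at 34.5 CPM (30.0 to 39.5). Ajuba was lowest in smooth-muscle-rich squares of that section, at 10.9 CPM (7.70 to 14.9), and stood at 25.7 CPM (20.1 to 32.4) in squares rich in markers of regenerating epithelium and at 29.9 CPM (23.0 to 38.3) in endothelium-rich squares. Wwtr1 and Tead1 were highest in endothelium-rich squares, at 78.3 and 107 CPM, and lowest in Paneth-rich squares, at 38.8 and 63.6 CPM. Genes in general were low in Paneth-rich squares of that section. The median log2 ratio over the rest was −0.51 for all genes and −0.45 for the 9 genes.

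Ccn1 was highest in the WT-labelled section in both neutrophil-rich and pericyte-rich squares, each at 130 CPM (117 to 144), and lowest in squares rich in proliferation markers, at 48.0 CPM (41.5 to 55.3). The neutrophil-rich squares shared 44.2% of their number with endothelium-rich squares and 44.2% with plasma-cell-rich squares. They shared 43.0% with adipocyte-rich squares, 41.9% with squares rich in markers of regenerating epithelium, 39.5% with macrophage-rich squares and 11.6% with pericyte-rich squares. Ccn1 also stood at 122 CPM in adipocyte-rich, 121 in fibroblast-rich, 120 in smooth-muscle-rich and 118 in endothelium-rich squares. Neutrophil markers were too scarce in the KO-labelled section for such squares to be drawn there. Lats2 stood at 34.5 CPM (27.8 to 42.3) in squares rich in lymphatic markers, 34.1 CPM in adipocyte-rich and 33.2 CPM in endothelium-rich squares. Amotl2 stood at 19.6 CPM (15.1 to 25.003) in squares rich in markers of enteric neurons and glia, 19.4 CPM in pericyte-rich and 18.3 CPM in smooth-muscle-rich squares. Counting error separates none of the 3 values of either gene.

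Position was also read from the share of pan-epithelial counts, with the squares of each section sorted into 5 bins of about equal number. From the least to the most epithelial bin, Yap1 stood at 51.2, 40.5, 41.1, 42.0 and 43.4 CPM in the KO-labelled section and at 41.2, 47.7, 55.2, 55.3 and 68.5 CPM in the WT-labelled section. The log2 ratio of the most over the least epithelial bin was −0.24 (−0.38 to −0.10) in the KO-labelled section and 0.73 (0.53 to 0.94) in the WT-labelled section. With squares of side 50 it was −0.08 (−0.22 to 0.07) in the KO-labelled section and 0.76 in the WT-labelled section. Ajuba had a ratio of −0.45 (−0.92 to 0.02) in the KO-labelled section and 0.81 (0.44 to 1.18) in the WT-labelled section. For all genes this ratio was not taken. Their median in pan-epithelial-rich squares over the rest of the section was −0.24 in the KO-labelled section and 0.20 in the WT-labelled section.

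**Figure D3:**
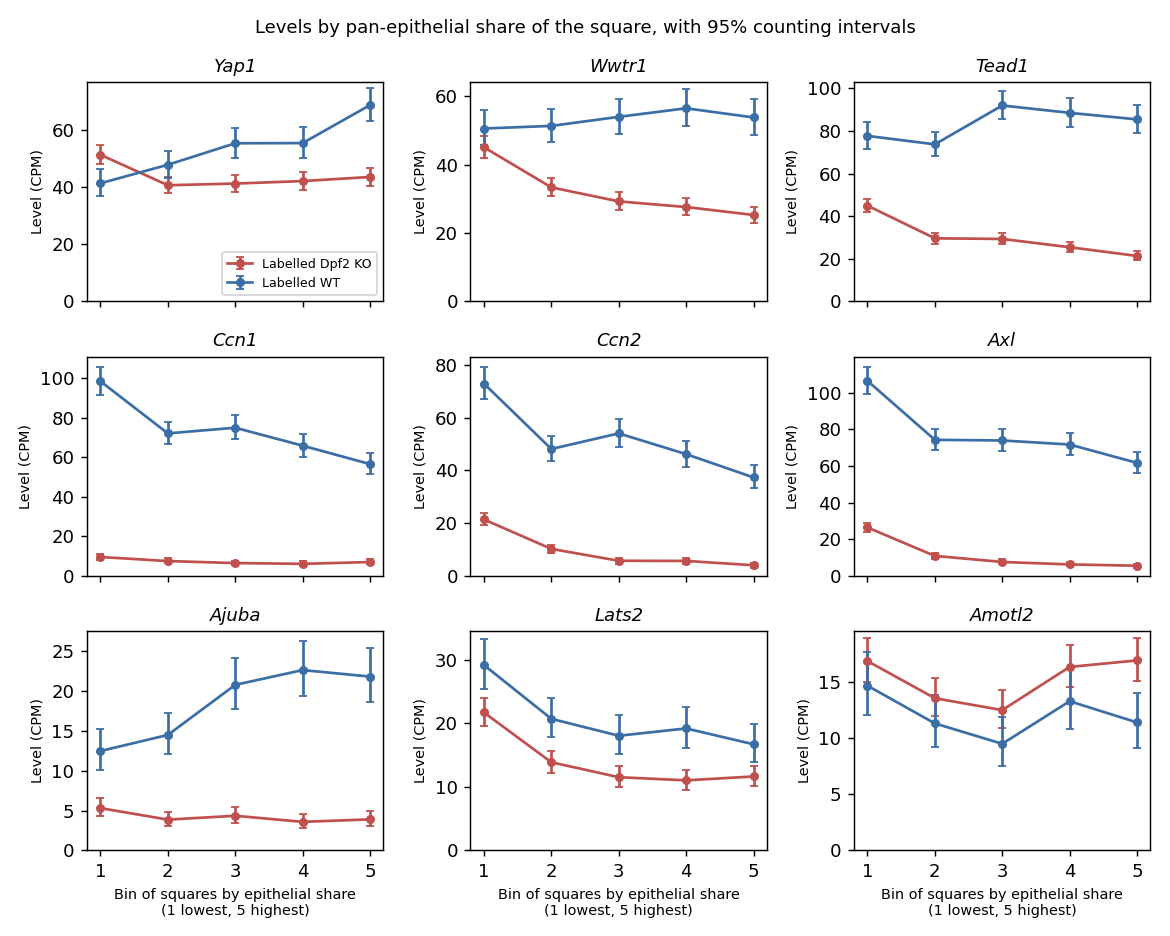
Level in CPM of 9 genes over 5 bins of squares ordered by their share of pan-epithelial marker counts (1 lowest, 5 highest), with 95% counting intervals, in the KO-labelled section (red) and the WT-labelled section (blue). Yap1 and Ajuba climb toward the most epithelial bin in the WT-labelled section alone, Ccn2, Axl and Lats2 decline in both sections, and Tead1 and Wwtr1 decline in the KO-labelled section. Ccn1 declines in the WT-labelled section, and its decline in the KO-labelled section is lost with squares of side 50.

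Wwtr1 and Tead1 declined toward the epithelium in the KO-labelled section, with ratios of −0.84 (−1.01 to −0.67) and −1.08 (−1.26 to −0.90), and had ratios of 0.09 (−0.11 to 0.29) and 0.14 (−0.02 to 0.30) in the WT-labelled section. With squares of side 50 the ratio of Wwtr1 in the WT-labelled section was 0.19 (−0.01 to 0.40) and that of Tead1 0.35 (0.19 to 0.52). The targets Ccn2 and Axl declined in both, by ratios of −2.42 and −2.26 in the KO-labelled section (−1.71 for Ccn2 with squares of side 50) and of −0.97 and −0.79 in the WT-labelled section. Ccn1 had ratios of −0.45 (−0.80 to −0.11) in the KO-labelled section and −0.80 (−0.97 to −0.63) in the WT-labelled section. With squares of side 50 the ratio of Ccn1 was −0.07 (−0.43 to 0.29) in the KO-labelled section and −0.68 in the WT-labelled section. Enterocyte markers climbed over the same bins from 22532 to 46825 CPM in the KO-labelled section and from 159 to 1400 CPM in the WT-labelled section, while Paneth markers declined from 10823 to 3391 CPM and from 140918 to 48996 CPM. Their part in these profiles was not tested.

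Distance from the nearest smooth-muscle-rich square gave a second axis, along which the squares were grouped. Summed, the 7 targets stood at 107, 61.3, 55.9 and 47.2 CPM in the KO-labelled section in muscle-rich squares, at 25 to 50, at 50 to 100 and at 100 to 200 units, and at 408, 248, 245 and 226 CPM in the WT-labelled section. The log2 ratio of muscle-rich squares over those 100 to 200 units away was 1.18 (1.05 to 1.31) in the KO-labelled section and 0.85 (0.76 to 0.95) in the WT-labelled section. The 3 effectors summed had a ratio of 0.75 (0.65 to 0.85) in the KO-labelled section and −0.08 (−0.21 to 0.05) in the WT-labelled section. For all genes this ratio was not taken. Their median in muscle-rich squares over the rest of the section was 0.20 in the KO-labelled section and −0.27 in the WT-labelled section. With squares of side 50 the ratio of the targets was 0.69 in the KO-labelled section and 0.46 in the WT-labelled section, and that of the effectors 0.55 and −0.19 (−0.32 to −0.05) in the same order. Muscle-rich squares were not muscle alone. From them to 100 to 200 units, Paneth markers fell from 11323 to 4519 CPM (KO-labelled) and from 126614 to 78181 CPM (WT-labelled). Fibroblast markers fell from 1283 to 362 and from 1445 to 798 CPM, and enterocyte markers climbed from 19554 to 43387 and from 166 to 507 CPM. Their part in these profiles was not tested.

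**Figure D4:**
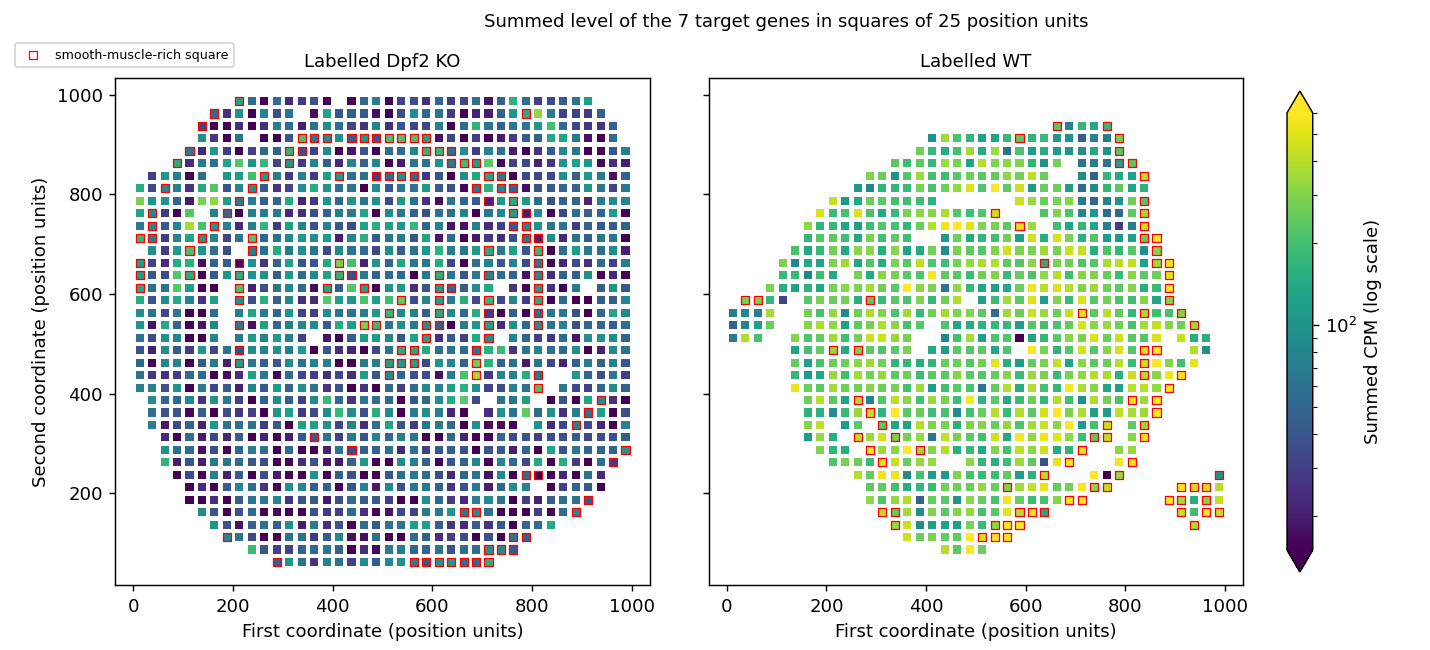
Summed level of the 7 target genes in CPM (colour, log scale, clipped at both ends) in each square with a side of 25 position units, placed by its 2 coordinates, in the KO-labelled section (left) and the WT-labelled section (right); red frames mark smooth-muscle-rich squares. The colours of the WT-labelled section are higher almost throughout, and framed squares average 107 CPM in the KO-labelled section and 408 CPM in the WT-labelled section.

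Single targets differed along this axis of distance. Ccn2 had a ratio of 2.16 (1.79 to 2.53) in the KO-labelled section and 1.002 (0.80 to 1.20) in the WT-labelled section, and Axl of 2.0 and 0.95. With squares of side 50 the ratio of Ccn2 was 1.31 in the KO-labelled section and 0.66 in the WT-labelled section, and that of Axl 1.33 and 0.48. Ajuba had 0.92 (0.35 to 1.496) in the KO-labelled section and −0.94 (−1.48 to −0.44) in the WT-labelled section, and with squares of side 50 it had 0.35 (−0.19 to 0.87) and −0.81 (−1.36 to −0.29). Lats2 had 1.10 in the KO-labelled section and 0.86 in the WT-labelled section, and 0.75 and 0.37 with squares of side 50. Amotl2 had 0.11 (−0.21 to 0.42) in the KO-labelled section and 0.67 (0.20 to 1.12) in the WT-labelled section, which became −0.23 (−0.53 to 0.07) and 0.23 (−0.28 to 0.72) with squares of side 50.

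The difference between the sections was then taken within squares rich in the same markers, for 14 lists usable in both. The median of the 9 genes was below 0 in all 14 kinds of square, from −2.56 to −0.48, where the median of all genes ran from −0.46 to 0.48. Squares rich in markers of enterocytes, all epithelium, goblet cells or plasma cells had 6 of the 9 genes at least 2-fold lower in the KO-labelled section, where 35.1%, 32.5%, 24.6% and 23.8% of all genes were. Squares rich in markers of dividing cells, regenerating epithelium, endothelium, enteric neurons and glia or adipocytes had 5 of 9, with 12.7%, 16.4%, 15.6%, 9.43% and 16.5% of all genes. Paneth-rich, fibroblast-rich, pericyte-rich and macrophage-rich squares had 4 of 9, with 6.76%, 8.83%, 8.86% and 14.4%, and smooth-muscle-rich squares 3 of 9, with 8.16%.

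On the other side, Amotl2 in macrophage-rich squares, at 1.04 (0.45 to 1.69) on 160 and 27 counts, was the single pair of gene and kind at least 2-fold higher in the KO-labelled section, where 16.3% of all genes were. In the other 13 kinds none of the 9 genes was, with 13.7% of all genes in pan-epithelial-rich, 16% in enterocyte-rich, 27.9% in Paneth-rich, 21.5% in goblet-rich, 13.9% in proliferation-rich and 14% in regenerating-epithelium-rich squares. The share of all genes was 21.8% in smooth-muscle-rich, 20.9% in fibroblast-rich, 15.7% in endothelium-rich and 19.8% in pericyte-rich squares, 18.6% in those rich in markers of enteric neurons and glia, 15.2% in plasma-cell-rich and 16.6% in adipocyte-rich squares.

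**Figure D5:**
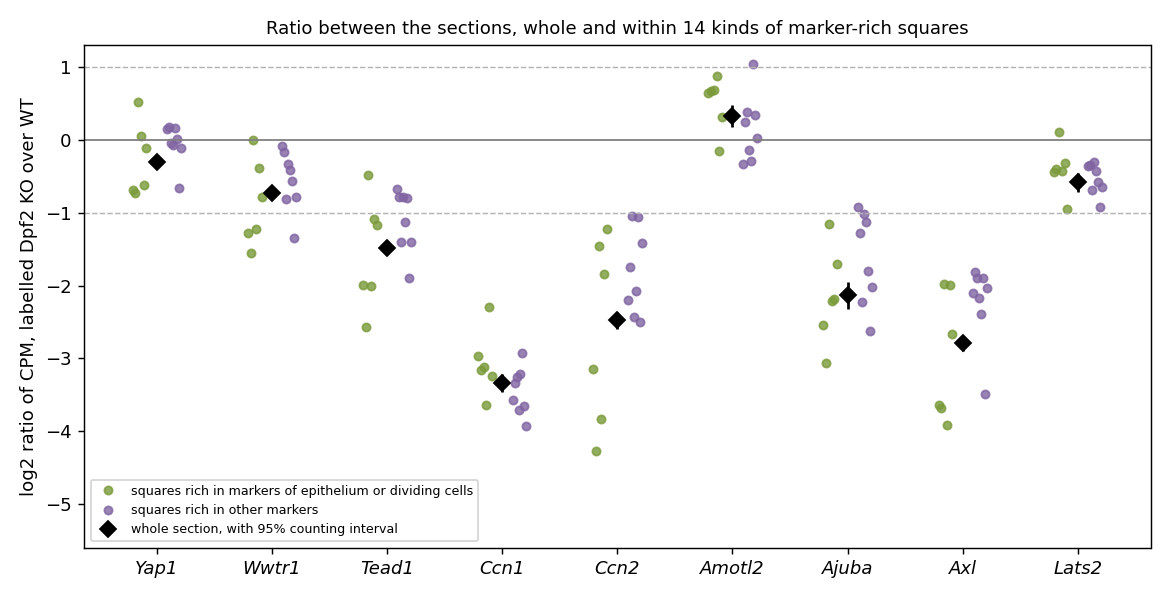
Log2 ratio of CPM in the KO-labelled section over the WT-labelled section for 9 genes, as whole sections (diamonds, with 95% counting intervals) and within 14 kinds of marker-rich squares (green for markers of epithelium or dividing cells, purple for other markers). All 14 points lie below the dashed line at −1 for Ccn1, Ccn2 and Axl, whereas those of Yap1 and Amotl2 lie on both sides of 0.

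Ccn1, Ccn2 and Axl were at least 2-fold lower in the KO-labelled section in all 14 kinds of square. Ccn1 kept the narrowest span of ratios of the 3, from −3.93 in adipocyte-rich to −2.30 in proliferation-rich squares. In smooth-muscle-rich squares it stood at 10.0 CPM on 89 counts in the KO-labelled section and at 120 CPM on 418 counts in the WT-labelled section, a log2 ratio of −3.58 (−3.93 to −3.25). Axl ran from −3.91 in goblet-rich to −1.81 (−2.02 to −1.61) in fibroblast-rich squares, where it stood at 37.0 CPM in the KO-labelled section and 130 CPM in the WT-labelled section.

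Ccn2 had the widest span of the 3, from −4.27 (−5.07 to −3.56) in enterocyte-rich squares to −1.04 (−1.37 to −0.70) in endothelium-rich squares. In those endothelium-rich squares it stood at 27.1 CPM in the KO-labelled section and 55.6 CPM in the WT-labelled section. Ajuba was at least 2-fold lower in 13 of the 14 kinds, from −3.06 in enterocyte-rich to −0.92 (−1.56 to −0.28) in smooth-muscle-rich squares.

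No effector was at least 2-fold lower in all 14 kinds of square. Tead1 was below 0 in all 14 kinds and at least 2-fold lower in 9, from −2.56 (−2.86 to −2.28) in enterocyte-rich to −0.48 (−0.68 to −0.27) in Paneth-rich squares. Wwtr1 ran from −1.56 in enterocyte-rich to −0.01 in Paneth-rich squares, and its counting interval lay below 0 in 11 kinds. Yap1 stood on both sides of 0, from −0.73 (−0.95 to −0.50) in enterocyte-rich to 0.53 (0.28 to 0.77) in Paneth-rich squares. The median of all genes also had its extremes in these kinds, at −0.46 in enterocyte-rich and 0.48 in Paneth-rich squares. Lats2 ran from −0.95 to 0.11 and Amotl2 from −0.32 to 1.04.

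In a second route, 5 bins of pan-epithelial share were drawn over the squares of both sections together. These bins matched the pan-epithelial share only and no other cell type. The least epithelial bin held 89 squares of the KO-labelled section and 352 of the WT-labelled section, and the most epithelial bin 382 and 59. From the least to the most epithelial bin, the log2 ratio was −3.33, −3.00, −3.09, −3.23 and −2.81 for Ccn1, and −1.19, −1.96, −2.86, −3.16 and −3.24 for Axl. For Yap1 it was 0.32 (0.12 to 0.51), −0.19, −0.61, −0.70 and −0.66. The ratio of Ccn1 was thus nearly even over the epithelial share, whereas those of Axl and Yap1 became lower with it. No median of all genes was taken in these bins. Between the sections, the median of all genes was −0.45 in pan-epithelial-rich and 0.30 in smooth-muscle-rich squares. How far Axl and Yap1 depart from genes in general was not tested.

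Within each section, how far the genes shared a spatial pattern was described by Pearson correlations of CPM over tiles, which share a library, a depth and a tissue composition and are not independent. Between genes with 500 or more counts in the section, 28 pairs each, the median was 0.25 in the KO-labelled section (−0.13 to 0.46) and 0.20 in the WT-labelled section (−0.10 to 0.67). The closest pairs in the WT-labelled section were Ccn2 with Axl at 0.67, Ccn1 with Ccn2 at 0.62 and Ccn1 with Axl at 0.57. In the KO-labelled section the same pairs stood at 0.46, 0.35 and 0.02, and without the 2 tiles highest in Ccn1 the correlation of Ccn1 with Ccn2 was 0.15. That section held 651, 838 and 1007 counts of Ccn1, Ccn2 and Axl, with 92 tiles. The WT-labelled section held 2930, 2071 and 3101, with 65 tiles. Counting error thus weighs more on these genes in the KO-labelled tiles, and its part in the lower correlations was not tested. Yap1 with Ccn1 stood at −0.04 in the KO-labelled section and 0.09 in the WT-labelled section.

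Some correlations with summed marker levels exceeded those between the genes. Axl correlated at 0.76 with fibroblast markers in the KO-labelled section, and at 0.81 with pericyte markers and 0.74 with fibroblast markers in the WT-labelled section. Wwtr1 and Tead1 stood at −0.73 and −0.65 with enterocyte markers in the KO-labelled section. In the WT-labelled section, Ajuba stood at 0.60 with markers of regenerating epithelium and Yap1 at 0.50 with pan-epithelial markers, and Ccn1 at 0.67 with markers of enteric neurons and glia.

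The genes whose tiles were most like those of each gene were sought among genes with 1000 or more counts in the section, which were at least 7888 genes over 92 tiles of the KO-labelled section and at least 5265 genes over 65 tiles of the WT-labelled section. For Axl they were Timp2, Igfbp4 and Timp3 in the KO-labelled section, with a highest correlation of 0.81, and Tsc22d1, Tgm2 and Cald1 in the WT-labelled section, with 0.83. For Ccn2 they were Eln, Col4a2 and Sorbs2 in the KO-labelled section, with 0.75, and Ap4e1, Saa3 and Gja1 in the WT-labelled section, with 0.74. For Tead1 they were Pabpc1, Actn1 and Nucks1 in the KO-labelled section, with 0.72, and Actn1, Tnfrsf12a and Cars in the WT-labelled section, with 0.64, so that Actn1, an actin crosslinker, was named in both.

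For Ccn1 the likest genes in the WT-labelled section were Adamts1, Tm4sf1 and Mt2, with a highest correlation of 0.80. In the KO-labelled section they were Defa32, Defa20 and Defa33, at 0.67 for Defa32, members of a family of near-identical Paneth cell genes between which reads may be split. That value rested on 2 tiles, at 31.0 and 25.4 CPM of Ccn1, without which it was 0.35. For Wwtr1 they were Tmem70, Psma6 and Sema5b in the KO-labelled section, with 0.67, and Slc23a2, Bhmt2 and Lamb1 in the WT-labelled section, with 0.72. For Yap1 they were Golga7, Auts2 and Ccdc82 in the KO-labelled section, with 0.50, and Sri, U2af1 and Pcbd2 in the WT-labelled section, with 0.65.

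The remaining targets had likest genes as well, where their counts allowed. For Lats2 they were Chst12, Tm4sf1 and Tinagl1 in the KO-labelled section, with 0.53, and Ifi27l2a, Lum and Serping1 in the WT-labelled section, with 0.61. For Amotl2 they were Pmepa1, Stom and Tmem131 in the KO-labelled section, with 0.60. For Ajuba they were Hilpda, Foxq1 and Bhmt2 in the WT-labelled section, with 0.60.

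The part of each section with the highest Ccn1, Ccn2 and Axl was also the part richest in muscle markers. In both sections it was also the part richest in markers of fibroblasts, pericytes, lymphatic vessels, enteric neurons and glia, neutrophils, macrophages and adipocytes. Lats2 was highest in another part of the KO-labelled section, and Ajuba in another part of the WT-labelled section. In the KO-labelled section, the part with the highest Ccn1, Ccn2, Axl and Ajuba (10.0, 13.5, 14.98 and 5.29 CPM) had the highest sums of smooth muscle markers, at 2703 CPM, of fibroblast markers, at 676 CPM, and of adipocyte markers, at 3704 CPM. In the WT-labelled section, the part with the highest Ccn1, Ccn2 and Axl (106, 75.6 and 95.9 CPM) also had the highest Tead1, Lats2 and Amotl2 (94.9, 24.1 and 15.7 CPM). It held the highest smooth muscle and pericyte marker sums, at 1195 and 469 CPM. The part of these markers in the levels was not tested.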

How the data were processed

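The authors placed 10 µm sections of fresh frozen intestine on an array of barcoded spots, sequenced the libraries, and kept the spots that an image of the tissue covered, per the labels' protocols. The authors deposited whole-number counts for each gene at each barcode, with no normalisation. The build GRCm38 comes from the submitters' processing notes. The sources used here do not give the aligner, the counting tool, strand use, the collapsing of molecular identifiers or the unit of the barcode positions. Reads that are copies of 1 molecule would make the intervals too narrow.

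Counts were summed by section, by 4 parts, by tiles (side 100, 200 or more barcodes) and by squares (side 25, 15 or more barcodes) and scaled to CPM with Python 3.11.15, numpy 2.4.6, pandas 2.3.3 and scipy 1.17.1. The KO-labelled section had a median of 932 counts per barcode and the WT-labelled section 721. Levels carry exact Poisson intervals and log2 ratios exact conditional binomial (Clopper-Pearson) intervals, at a confidence level of 0.95. The scripts were tested on simulated data. With 1 section per genotype no test of a difference was made, and spots, squares and tiles were not treated as replicates. Between sections, genes were counted as apart at 2-fold if both sections together held 200 or more of their counts, and genes within marker-rich squares with 50 or more counts in those squares. A marker list was used in a section if its median rich square held 10 or more of its counts. Of the barcode names, 45557 occur in both sections.

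The 10 genes, the pathway lists and the 19 marker lists were chosen with earlier results of these data known. Named beside the 10 genes were genes of the pathway lists that were at least 2-fold apart, the 3 most abundant of each list, the likest genes by tile, and any gene said to be chosen after its values were seen. The scaling, the total, the barcodes, the thresholds, the squares and the tiles were varied as alternatives.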

Additional observations from a re-analysis of the deposited data

How the results depend on the processing

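The 5 genes at least 2-fold apart numbered 5 under each alternative except a 1.5-fold threshold, which gave 6, and none of the 40 ratios of the 10 genes under other scalings, totals or barcodes had the other sign. Scaling by the median of ratios moved every ratio by 0.18. Non-overlapping parts numbered 8, where 42.8% of all genes had all 4 parts lower in the KO-labelled section, 6 with 9 parts and 7 with that scaling. Medians within marker-rich squares stayed below 0 in every alternative that gave a value; 4 lists gave none with 1 threshold for both sections. In the WT-labelled section, the 35 of 153 pairs at least 1.5-fold higher in rich squares became 15 of 162 with squares of side 50 and 17 of 135 with 1 threshold for both sections. No share of all genes was taken under any alternative, so counts under the alternatives cannot be set against genes in general. Squares of side 50 brought most of the summed profiles nearer to 0 but moved both effector profiles of the WT-labelled section away from it. Muscle-rich over distant squares became 0.69 for the targets and 0.55 for the effectors in the KO-labelled section, and 0.46 and −0.19 in the WT-labelled section. The most over the least epithelial bin became −0.66 for the targets and −0.45 for the effectors in the KO-labelled section, and −0.56 and 0.42 in the WT-labelled section. The cause was not tested. Ankrd1, with 8 and 21 counts, is limited by depth. No paired analysis was possible because each genotype has 1 section.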
